A study of Drosophila melanogaster with 13 samples.

Results

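The control immunoprecipitations (IgG) from Drosophila melanogaster egg chambers of 2 developmental windows were compared peak by peak: pooled stages 12 and 13 (6933 peaks) and stage 10 (5551 peaks). Together these 12484 IgG peaks were part of 83082 peaks in the 9 peak lists of a ChIP-seq series with 13 samples. A peak was called recurring if at least 1 bp of it lay in an IgG peak of the other stage, and overlapping peaks were joined into 2081 recurring loci. All other peaks are called stage-specific, which says only that the other list held no overlapping peak.

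Both groups were egg chambers of the OrR wild-type strain, from females fed wet yeast for 2 days, fixed in 2% formaldehyde, with 600 egg chambers in each immunoprecipitation. The IgG is labelled as made in-house and called GP IgG. Each group was 1 library, so no difference between stages has a replicate check and no test between stages was possible. At each stage the IgG, the SUUR and the Cdc45 immunoprecipitations were called against 1 shared input. Square brackets give Wilson 95% intervals, which treat peaks as independent and so hold counting error alone; PCR copies and neighbouring peaks are not independent.

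An IgG precipitation uses immunoglobulin with no intended target in the chromatin, and its peaks mark places where such a library exceeds its input. Egg chambers hold polyploid nurse cells, an oocyte and a layer of follicle cells, and the follicle cells amplify a few chorion and other gene loci from defined replication origins late in oogenesis. SUUR binds late replicating chromatin, and Cdc45 belongs to the helicase that opens DNA at replication forks. In the Release 5 assembly (dm3) the 5 major arms (X and both arms of chromosomes 2 and 3) hold mostly euchromatin, the Het scaffolds hold placed heterochromatin, and U and Uextra collect sequence that could not be placed, much of it repetitive.

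In each of the 4 egg chamber lists that carry the label SUUR or Cdc45, the file header names the run after the other antibody. They are therefore named "labelled SUUR" and "labelled Cdc45" throughout, and no difference between these antibodies can be read from them.

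After removal of duplicates, 2592149 of 6645381 tags (39.0%) were kept for stages 12-13 IgG and 3891175 of 6868167 (56.7%) for stage 10 IgG, so the stage 10 library had 1.50 times as many tags behind its peaks. The caller kept 1 tag per position and strand. It set each 44 bp tag to a fragment length of 41 bp at stages 12-13, shorter than the tag, and 47 bp at stage 10. Together these settings limit a summit pileup (the tags stacked at the highest base) to 82 and 94 tags. The lists covered 657 kb at stages 12-13 and 608 kb at stage 10. Depths of the labelled lists ranged between 353742 tags for the stage 10 list labelled SUUR and 8265341 tags for the one labelled Cdc45.

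The first comparison asked how much of the control background returned at the other stage. At stages 12-13, 2172 of 6933 IgG peaks recurred, which is 31.3% [30.2 to 32.4]. At stage 10, 2203 of 5551 recurred, which is 39.7% [38.4 to 41.0]. Of the 2081 loci, 1899 joined exactly 1 peak of each list. With IgG peaks kept only at a p of 1e-05, 33.0% of stages 12-13 peaks and 34.6% of stage 10 peaks recurred. The order of the stages turned round only with peaks of under 10 tags left out, a limit chosen after seeing the data that removes 68.9% of the stages 12-13 list and 26.3% of the stage 10 list: then 41.4% of stages 12-13 peaks and 22.9% of stage 10 peaks recurred. Without U and Uextra the shares were 10.3% at stages 12-13 and 51.1% at stage 10.

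The loci were mostly in unplaced sequence, and recurrence differed between sequence classes. Uextra held 1839 of the 2081 loci. It held 4923 peaks at stages 12-13 and 5001 at stage 10, a ratio of 0.984, and the same share recurred on both sides, 38.6% [37.2 to 39.9] and 38.6% [37.3 to 40.0]. The major arms held 1461 peaks at stages 12-13 against 249 at stage 10, which is 5.87 times as many from the shallower library. Most of this excess was peaks of few tags: 82.4% of the arm peaks at stages 12-13 had under 10 tags, against 29.3% at stage 10. With 20 tags or more the arms held 40 peaks at stages 12-13 and 37 at stage 10. These limits were not scaled for the 1.50 times as many tags at stage 10. Limits in proportion to depth, 20 tags at stages 12-13 and 30 at stage 10, gave 40 and 12 arm peaks. With a fold enrichment of 10 or more the arms held 22 peaks at stages 12-13 and 8 at stage 10. On the arms, 119 of the 1461 peaks of stages 12-13 recurred (8.15% [6.85 to 9.66]), and 133 of the 249 peaks of stage 10 (53.4% [47.2 to 59.5]). They formed 115 arm loci. Stage-specific arm peaks were 11.6 times as many at stages 12-13 as at stage 10, and arm peaks made up 21.1% of the stages 12-13 list against 4.49% of the stage 10 list.

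The smaller classes varied. Het scaffolds held 203 IgG peaks at stages 12-13, of which 13.3% [9.30 to 18.7] recurred, and 71 at stage 10, of which 36.6% [26.4 to 48.2] recurred. On U, 32.0% of 303 peaks recurred at stages 12-13 and 45.9% of 196 at stage 10. Chromosome 4, a short and largely heterochromatic chromosome, held 16 peaks at stages 12-13 and 8 at stage 10, with 4 recurring on each side. The mitochondrial genome held 27 peaks at stages 12-13 and 26 at stage 10, and 26 recurred at stages 12-13 and 18 at stage 10. The bars of peaks by class show that the difference in number lay outside Uextra.

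**Figure D1:**
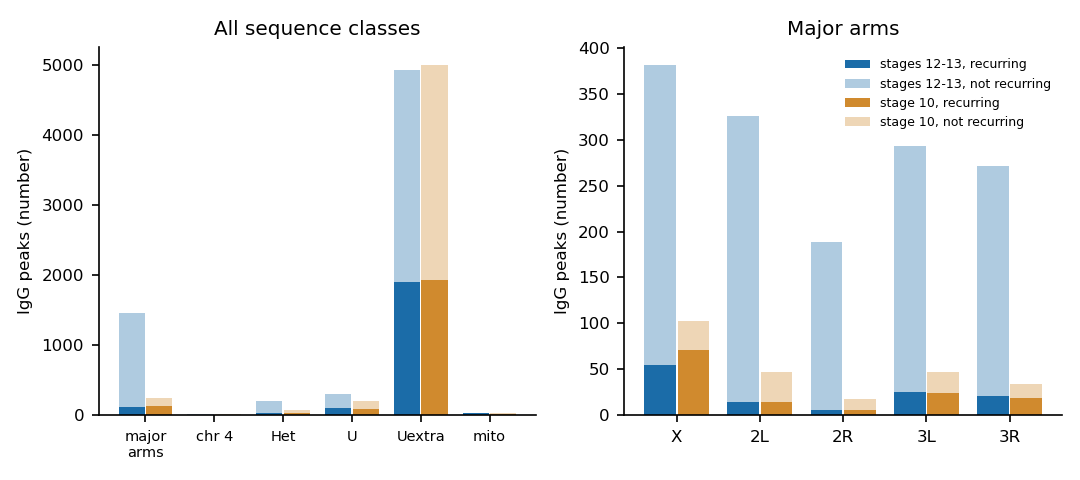
Number of IgG peaks (vertical axis) by sequence class (left) and on each major arm (right), at stages 12-13 (blue) and stage 10 (orange), 1 library each. The dark part of a bar is peaks that recur at the other stage: on the arms 119 of 1461 at stages 12-13 and 133 of 249 at stage 10.

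Among the arms, X carried most recurring loci, 54 of 115. On X, 54 of 382 peaks of stages 12-13 recurred (14.1% [11.0 to 18.0]) and 71 of 103 peaks of stage 10 (68.9% [59.5 to 77.1]). On the 4 autosomal arms together, 65 of 1079 peaks recurred at stages 12-13 (6.02% [4.75 to 7.61]) and 62 of 146 at stage 10 (42.5% [34.7 to 50.6]). Per arm, the lowest shares were on 2R, with 5 of 189 peaks at stages 12-13 and 5 of 18 at stage 10. A single window, X from 13.9 to 14.0 Mb, held 40 peaks of stages 12-13 and 26 of stage 10 and 18 of the X loci. Without it, 10.5% [7.70 to 14.2] of X peaks recurred at stages 12-13 and 61.0% [49.9 to 71.2] at stage 10. The window was chosen because it held the most recurring loci of any arm window, a choice that favours lower shares without it.

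Recurring peaks were wider and taller than stage-specific ones in both lists. Width and pileup played no part in the rule, except that a wider peak has more bases with which to overlap. Recurring peaks had a median width of 92 bp at stages 12-13, against 61 bp for those specific to stages 12-13. At stage 10 the medians were 104 bp for recurring and 77 bp for specific peaks. Median summit pileup was 9 tags for recurring and 7 tags for specific peaks at stages 12-13, and 12 and 10 tags at stage 10. These pileups and the fold enrichments below are the authors' own values, not scaled between libraries, and describe peaks within their list. Fold enrichment over input had medians of 4.74 and 4.22 at stages 12-13 and of 4.72 and 4.33 at stage 10, recurring before specific.

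The share of peaks that recurred climbed with pileup. At stages 12-13 it was 23.8% of 3198 peaks with 5 to 7 tags, 26.0% of 1166 with 10 to 14 tags, 51.5% of 464 with 15 to 19 tags, 77.1% of 262 with 20 to 29 tags and 98.5% of 264 with 30 tags or more. At stage 10 it was 26.5% of 1356 peaks with 8 or 9 tags, 38.1% of 3227 with 10 to 14 tags, 57.7% of 563 with 15 to 19 tags, 81.6% of 141 with 20 to 29 tags and 92.5% of 161 with 30 or more. Every peak whose pileup passed 50% of its list's upper limit recurred, 108 of 108 at stages 12-13 and 104 of 104 at stage 10. A fold enrichment of 10 or more was seen in 528 peaks of stages 12-13, of which 427 recurred, and in 113 peaks of stage 10, of which all 113 recurred. Among peaks specific to stages 12-13, 75.8% had under 10 tags and 23.9% had the smallest possible width, the fragment length. Among those specific to stage 10 the shares were 32.1% and 13.4%. Of all peaks, recurring ones included, 68.9% at stages 12-13 and 26.3% at stage 10 had under 10 tags.

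On the major arms the gap between weak and strong peaks was wider still at stages 12-13. Of 836 arm peaks with 5 to 7 tags, 2.99% recurred, against 80.0% of 25 with 20 to 29 tags and 13 of 15 with 30 or more. At stage 10, 22 of 68 arm peaks with 8 or 9 tags recurred, 17 of 25 with 20 to 29 tags and 11 of 12 with 30 or more. Arm peaks of 201 bp and more recurred in 19 of 38 cases at stages 12-13 and in 11 of 11 at stage 10.

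**Figure D2:**
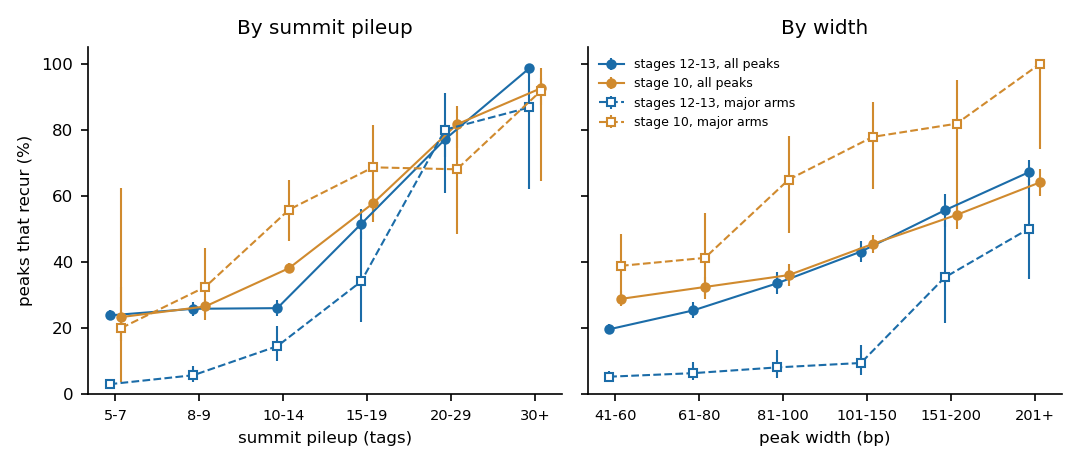
Share of IgG peaks that recur at the other stage (vertical axis, percent) by summit pileup in tags (left) and by peak width in bp (right), for stages 12-13 (blue) and stage 10 (orange); filled circles are all peaks, open squares the major arms, bars Wilson 95% intervals over peaks. Shares lie between 98.5% and 86.7% at 30 tags or more in all 4 lines, while weak arm peaks of stages 12-13 stay at 2.99%.

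Where 1 peak of each stage met, their heights ran together more closely than their widths. Over the 1899 such pairs, Spearman's rho was 0.449 for pileup and 0.154 for width. Over the 102 pairs on the arms it was 0.827 for pileup and 0.419 for width, and over the 1698 pairs on Uextra 0.390 and 0.112. These are descriptions over loci that share 2 libraries and the local copy number and mappability, not tests. The summits lay a median of 27 bp apart, and in 212 pairs (11.2%) both edges agreed to within 10 bp. On the arms both edges did so in 26 of 102 pairs (25.5%). Few loci depended on the limit of 1 bp: 67 of 2294 overlapping pairs shared 10 bp or less, and 35 pairs of stage-specific peaks missed each other by 0 to 9 bp.

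Tall recurring loci fell into sets that differed in which library was higher. Of 212 Uextra loci with 30 tags or more in either list, 187 had the higher pileup at stages 12-13, with medians of 38 tags at stages 12-13 and 24 tags at stage 10. All 18 mitochondrial loci had the higher pileup at stage 10, with medians of 31.5 and 59.5 tags. Of 30 such loci on U, 26 were also higher at stage 10, with medians of 32 tags at stages 12-13 and 57 tags at stage 10. Fold enrichment was low at these U and mitochondrial loci, with medians of 3.01 and 2.95 at stages 12-13 and 3.79 and 3.60 at stage 10, against 18.4 and 9.05 for the tall Uextra loci. The stage 10 library kept 1.50 times as many tags, and the part of depth in these differences was not tested.

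**Figure D3:**
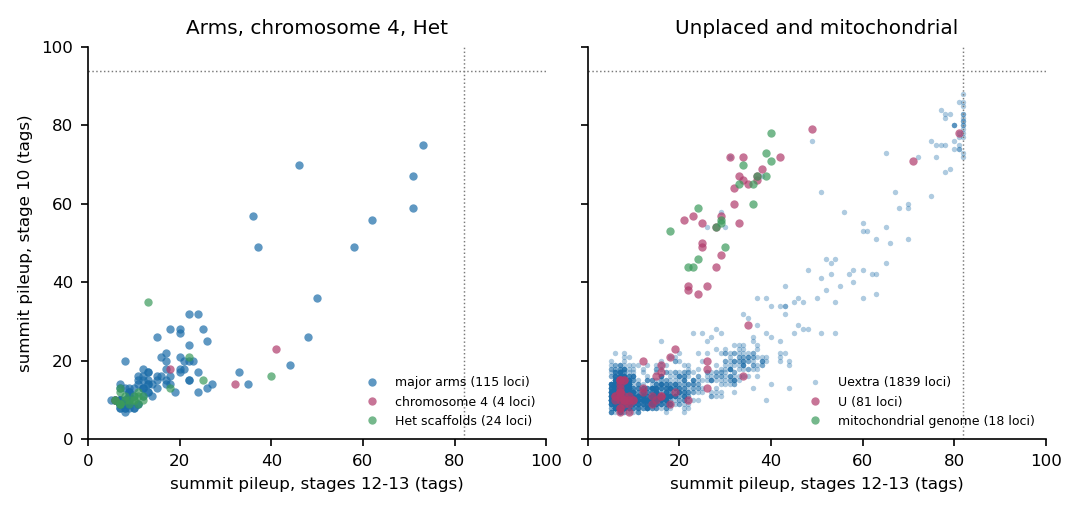
Summit pileup of each recurring IgG locus in tags at stages 12-13 (horizontal) and at stage 10 (vertical), highest peak of each list, for arms, chromosome 4 and Het scaffolds (left) and for unplaced and mitochondrial sequence (right). Dotted lines mark the upper limits of 82 and 94 tags; mitochondrial loci and a set of U loci lie to the upper left of the Uextra loci, with 18 to 40 tags at stages 12-13 and 44 to 78 at stage 10 for the mitochondrial ones.

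The highest recurring loci on placed sequence were ranked by their stages 12-13 pileup, so which library is higher cannot be read from this order. The tallest, X:4129799-4129901, had 73 tags at stages 12-13 and 75 tags at stage 10. A neighbouring pair on X followed: X:922585-923398 had 71 and 59 tags, and X:923449-924355 had 71 and 67 tags, stages 12-13 first. The edges of this second member enclosed 907 bp at stages 12-13 and 903 bp at stage 10, so a block of the same extent was called at both stages. On 3L, the locus 3L:13331125-13331227 had 62 tags at stages 12-13 and 56 tags at stage 10, and the highest fold enrichment on the arms in both lists, 30.5 and 17.7. These 4 loci were each overlapped by a peak in all 4 lists labelled SUUR or Cdc45, as were 26 of all 115 recurring arm loci (22.6%).

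Next in order came loci on X, 3R and chromosome 4. X:21834848-21835030 had 58 tags at stages 12-13 and 49 tags at stage 10, and X:12540951-12541023 had 50 and 36 tags. A pair at the distal part of 3R, 3R:25880591-25881516 and 3R:25881588-25881658, had 48 and 44 tags at stages 12-13 against 26 and 19 tags at stage 10. The narrower of them was in none of the 4 labelled lists, which held for 2 of all 115 recurring arm loci. At the other end of that arm, 3R:126855-126983 had 46 tags at stages 12-13 and 70 tags at stage 10. On chromosome 4, 4:118778-118845 had 41 tags at stages 12-13 and 23 at stage 10. On 2R, 2R:9509718-9509774 was among the 5 highest folds at stage 10, with 12.9 at stages 12-13 and 13.0 at stage 10, from 24 and 32 tags. A pair that ranks higher by stage 10 pileup, X:8188211-8188314 and X:8189433-8189848, had 37 and 36 tags at stages 12-13 and 49 and 57 tags at stage 10. Of the 15 arm loci with 30 tags or more in either list, 9 had the higher pileup at stages 12-13 and 6 at stage 10.

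The widest recurring locus of the arms changed shape between stages. X:2684005-2687270 was called as 1 peak of 3266 bp with a summit of 33 tags at stages 12-13, and as 10 separate peaks covering 2279 bp with at most 17 tags at stage 10. Close to it, X:2690000-2690789 was 1 peak at stages 12-13 and 2 at stage 10, with at most 24 and 12 tags. Both loci were overlapped by 3 of the 4 labelled lists, as were 42 of all 115 recurring arm loci. The remaining members of the 5 widest were the tall neighbouring pair on X and the wider locus on distal 3R described above.

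Recurring arm loci were often grouped. When loci within 5 kb of each other were joined, 53 of the 115 lay in 8 groups of 3 or more, 44 stood alone and 9 groups held 2. The largest group, X:13941419-13954800, held 18 loci over 13.4 kb with a median summit spacing of 628 bp. Their pileups were 13 to 24 tags at stages 12-13 and 15 to 28 tags at stage 10, and their fold enrichments 2.53 to 6.76 and 2.54 to 5.41. All 18 were overlapped by both stages 12-13 lists and by the stage 10 list labelled Cdc45, and 9 by the one labelled SUUR. Of all 115 recurring arm loci, the stages 12-13 lists labelled SUUR and Cdc45 overlapped 80.0% and 71.3%. The stage 10 lists overlapped 70.4% (Cdc45) and 41.7% (SUUR). None of the 18 was overlapped by an IgG peak of the salivary gland, against 15 of all 115 recurring arm loci (13.0%). Next in size were 3L:23935964-23939576 with 7 loci over 3.61 kb and X:2965446-2974061 with 6 loci over 8.62 kb. All 7 and all 6 of them were overlapped by a salivary gland IgG peak, and they belong to the 15 loci just counted. These 15 loci were touched by only 5 gland IgG peaks, 2 on the autosomal arms and 3 on X. Gland IgG peaks on the arms had a median width of 2795 bp, so 1 of them can span several neighbouring loci. Groups of 5 lay in the chorion amplicon DAFC-66D, described below, and at X:18324997-18327345 and 3R:23689642-23693617. The last of these had pileups of 7 to 10 tags at stages 12-13 and 8 to 11 tags at stage 10, and the one on X had 7 to 11 and 9 to 14 tags.

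In 100 kb windows over all sequence, 9 of the 10 windows richest in recurring loci were on Uextra between 27.3 and 29.0 Mb, and the other was the X window above. The richest, Uextra from 28.9 to 29.0 Mb, held 58 loci, with 158 IgG peaks at stages 12-13 and 60 at stage 10. Over the last part of Uextra, 28.5 to 29.0 Mb, 228 of 589 peaks recurred at stages 12-13 (38.7% [34.9 to 42.7]) and 242 of 266 at stage 10 (91.0% [86.9 to 93.9]). The rest of Uextra recurred at 38.6% and 35.7%. This end was chosen after seeing that its windows were the richest in recurring loci, a choice that favours high shares there. Peaks of this end had a median pileup of 13 tags and a median fold of 7.38 at stages 12-13, against 8 tags and 4.22 over the rest of Uextra. At stage 10 they had 11 tags and 4.72, and so did the rest of Uextra. On the arms, 409 windows held a peak of stages 12-13, 118 held one of stage 10 and 58 held a recurring locus.

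Among stage-specific arm peaks the highest fold was 14.4 at stages 12-13 and 8.54 at stage 10, against 30.5 and 17.7 among recurring ones. Of 22 arm peaks of stages 12-13 with a fold of 10 or more, 17 recurred and 5 were stage-specific. The latter were led by 3R:10724252-10724310, with 33 tags and a fold of 14.4. Next came 3R:26881271-26881342 with a fold of 11.0, 3R:27780716-27780776 with 10.5, and 2L:8764961-8765011 and 3L:13622678-13622731 with 10.0 each. Of these 5, 3 were overlapped by the stage 10 list labelled SUUR, against 4.02% of all 1342 arm peaks specific to stages 12-13. Those on 2L and 3L were also overlapped by the stages 12-13 list labelled SUUR, against 26.4% of all 1342. None was overlapped by a list labelled Cdc45, against 33.1% of all 1342 for stages 12-13 and 40.1% for stage 10. At stage 10 the first was 3L:21825602-21825660, with 25 tags and a fold of 8.54. The other 4, at 2R:488087-488245, 3L:23331218-23331278, 3R:21575893-21575939 and X:13944074-13944125, had folds of 5.20 to 5.90. Of these 5, 3 were overlapped by a labelled list of stages 12-13, against 58.6% of all 116 arm peaks specific to stage 10. The stage 10 list labelled SUUR overlapped those at 3L:21825602-21825660, 2R:488087-488245 and 3R:21575893-21575939, against 13.8% of all 116. Only X:13944074-13944125 was overlapped by the stage 10 list labelled Cdc45, against 47.4% of all 116. This peak on X lies inside the largest group of recurring loci.

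The amplified loci of follicle cells were examined because control signal there bears on the labelled lists. In the window of DAFC-66D, the chorion gene amplicon on chromosome 3 (3L, 8.6 to 8.9 Mb), IgG had 8 peaks covering 0.584 kb at stages 12-13 and 14 peaks covering 1.54 kb at stage 10, with 6 recurring on each side. Of these 6 loci, 5 lay within 6.86 kb, at 3L:8719333-8726193. Their pileups were 20 to 26 tags at stages 12-13 and 24 to 32 tags at stage 10, with low folds of 2.11 to 2.80 and 2.26 to 2.77. The sixth, 3L:8746885-8747028, had 18 and 16 tags and folds of 3.00 and 3.12. All 5 grouped loci were overlapped by both stages 12-13 lists and by the stage 10 list labelled SUUR, and 1 by the stage 10 list labelled Cdc45. Over all 115 recurring arm loci these shares were 80.0% (SUUR) and 71.3% (Cdc45) at stages 12-13. At stage 10 they were 41.7% (SUUR) and 70.4% (Cdc45). In the DAFC-66D window the lists labelled SUUR and Cdc45 covered 131 kb and 71.3 kb at stages 12-13. At stage 10 they covered 35.3 kb and 5.18 kb. The part of this coverage in the overlaps was not tested.

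The windows of the other amplicons held 0 or 1 recurring IgG locus each. DAFC-7F, the chorion amplicon on X, had 2 IgG peaks at stages 12-13 and 1 at stage 10, none recurring. DAFC-34B had 13 peaks at stages 12-13 and 4 at stage 10, with 1 recurring locus. DAFC-62D and DAFC-22B had 2 peaks each at stages 12-13 and 0 at stage 10, and DAFC-30B had 0 at both. In the histone cluster, a tandem array on 2L (21.4 to 21.6 Mb), 72 peaks covered 4.69 kb at stages 12-13 against 10 peaks and 0.644 kb at stage 10, and 3 recurred on each side. The whole of 2L, cluster included, had a similar imbalance, with 326 peaks at stages 12-13 and 47 at stage 10. Of these, 14 recurred on each side (4.29% and 29.8%). Over the Bithorax and Antennapedia homeotic complexes neither list had a peak. Over all arms, only 58 windows of 100 kb held a recurring locus and 118 a stage 10 peak. Whether the counts at these loci differ from those of other arm stretches of equal length was not tested.

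The second comparison asked how much of each labelled list fell on the recurring background. Of the stages 12-13 list labelled SUUR, 1750 of 9875 peaks overlapped a recurring IgG locus (17.7% [17.0 to 18.5]), and of the one labelled Cdc45 1152 of 13241 (8.70% [8.23 to 9.19]). Of the stage 10 list labelled SUUR, 425 of 5147 did so (8.26% [7.54 to 9.04]), and of the one labelled Cdc45 1364 of 24764 (5.51% [5.23 to 5.80]). Lists of 1 stage share their input, and the part of the input in these overlaps was not tested. On the major arms the shares were far lower: 3.11% and 2.01% for the lists labelled SUUR and Cdc45 at stages 12-13, and 1.57% and 0.881% for those labelled SUUR and Cdc45 at stage 10. The stage 10 list labelled SUUR came from 353742 tags, and among its peaks of 5 tags or more 34.9% lay on a recurring locus.

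The share on a recurring locus was highest among the strongest peaks, which were also wider in all 4 lists. Among the upper 10% of the list by p (ties kept), 58.7% of the stages 12-13 list labelled SUUR and 24.6% of the one labelled Cdc45 lay on a recurring locus, and 28.8% and 13.1% of the stage 10 lists labelled SUUR and Cdc45. Below the middle of the lists the shares were 8.20% and 4.60% at stages 12-13 and 3.64% and 3.24% at stage 10, in the same order of labels. In the stages 12-13 list labelled SUUR, median widths on and off recurring loci were 143 and 146 bp in the upper 10%. Below the middle of that list they were 79 and 72 bp. A wider peak has more bases with which to overlap, and the part of width was not tested. Within U and Uextra, 72.4% [69.0 to 75.6] of the upper 10% of the stages 12-13 list labelled SUUR fell on recurring IgG, and 72.4% [64.1 to 79.5] of that of stage 10. For the lists labelled Cdc45 these shares were 32.1% [28.9 to 35.4] at stages 12-13 and 16.6% [14.8 to 18.6] at stage 10. On the arms the upper 10% reached 16.6% [12.9 to 21.1] and 12.4% [9.59 to 16.0] at stages 12-13 and 10.5% [7.74 to 14.2] and 5.45% [4.0 to 7.39] at stage 10, labelled SUUR before labelled Cdc45. When stage-specific IgG peaks were counted as well, 44.3% and 25.5% of the stages 12-13 lists and 14.5% and 18.6% of the stage 10 lists touched IgG, labels in that order.

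**Figure D4:**
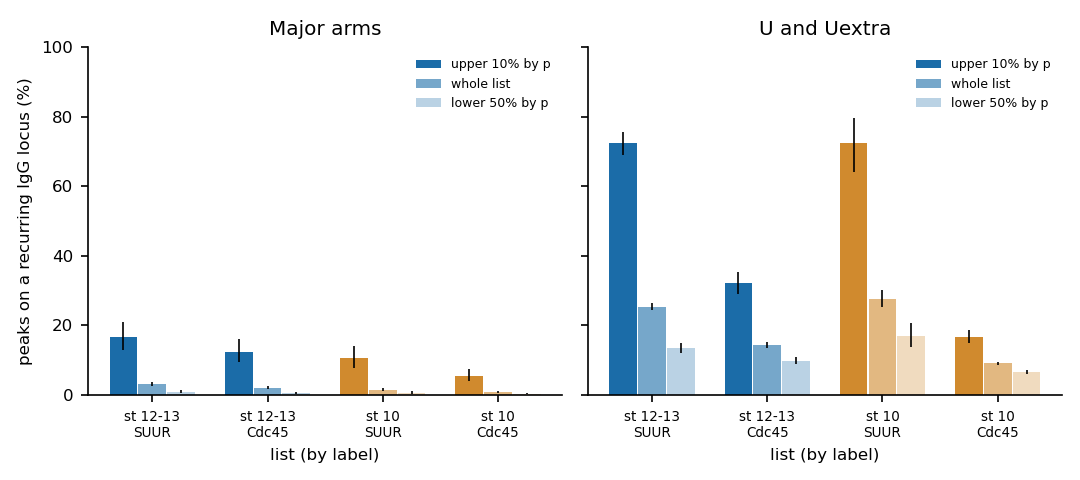
Share of peaks of each labelled list that overlap a recurring IgG locus (vertical axis, percent), on the major arms (left) and on U and Uextra (right), for stages 12-13 (blue) and stage 10 (orange). Dark to pale bars are the upper 10% by p, the whole list and the lower 50% by p, with Wilson 95% intervals; on the arms the dark bars reach at most 16.6%.

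Seen from the IgG side, 1940 of the 2081 recurring loci (93.2% [92.1 to 94.2]) were overlapped by at least 1 labelled list and 230 by all 4. Of peaks specific to stages 12-13, 56.9% [55.5 to 58.3] were in at least 1 list, and of those specific to stage 10, 77.4% [75.9 to 78.7]. On X, 18 of 54 recurring loci were in all 4 lists, and on the autosomal arms 8 of 61. The 9 loci of the largest X group that the stage 10 list labelled SUUR overlapped made up 9 of these 18.

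Since loci are wider than single peaks, the position of the summit base was also used. For stages 12-13 IgG, 58.7% of recurring and 21.5% of specific summits lay in a peak of the same stage's list labelled SUUR (33.2% over all IgG peaks), and 41.1% and 20.9% in the one labelled Cdc45 (27.2% over all). Against the stage 10 lists, which were called on another input, the shares were 11.6% and 2.77% for the label SUUR (5.54% over all) and 44.4% and 29.5% for the label Cdc45 (34.2% over all). For stage 10 IgG, 61.3% of recurring and 27.4% of specific summits lay in the stages 12-13 list labelled SUUR (40.9% over all), and 42.5% and 32.4% in the one labelled Cdc45 (36.4% over all). In the stage 10 list labelled SUUR the shares were 11.3% and 1.94% (5.64% over all). The exception was the stage 10 list labelled Cdc45, where 44.2% [42.1 to 46.2] of recurring and 47.7% [46.0 to 49.4] of specific summits of stage 10 IgG lay (46.3% over all). On Uextra the shares were 43.4% and 47.5%, whereas on the major arms 60.9% [52.4 to 68.8] of recurring and 38.8% [30.4 to 47.9] of specific summits lay in that list. In the other 7 pairings recurring summits were more often inside a labelled peak, with intervals that did not overlap.

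**Figure D5:**
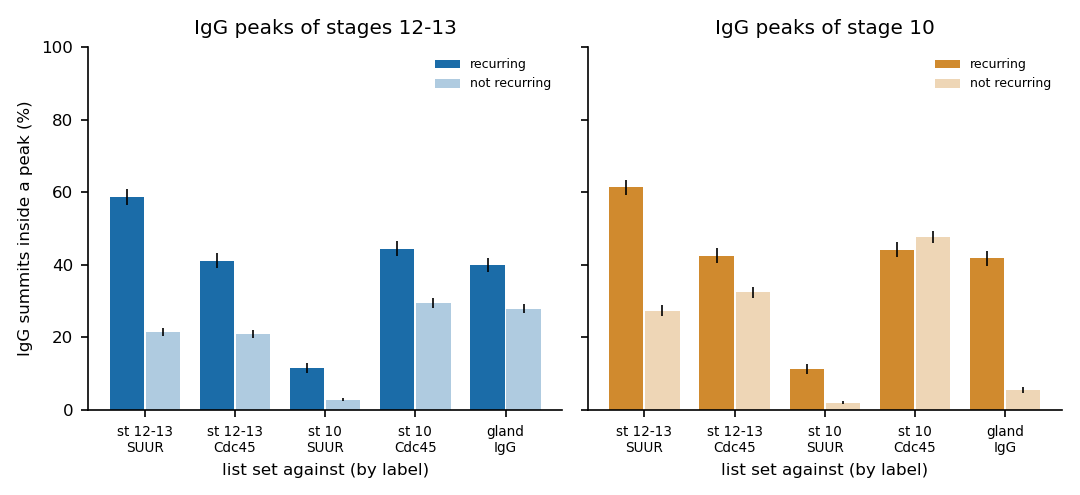
Share of IgG summits that lie inside a peak of another list (vertical axis, percent), for IgG of stages 12-13 (left) and of stage 10 (right); dark bars are recurring and pale bars stage-specific IgG peaks, with Wilson 95% intervals. Dark bars exceed pale ones except for stage 10 IgG against the stage 10 list labelled Cdc45 (44.2% and 47.7%).

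IgG from another tissue gave a comparison outside the rule. The salivary gland IgG list of OrR larvae, a polytene tissue precipitated with rabbit IgG and called with another input and caller version, held 5684 peaks covering 6763 kb. It overlapped 854 of the 2081 recurring loci (41.0% [38.9 to 43.2]), 28.3% of peaks specific to stages 12-13 and 6.18% of those specific to stage 10. By summits, 40.0% of recurring and 27.9% of specific peaks of stages 12-13 lay in a gland IgG peak (31.7% over all), against 41.8% and 5.50% at stage 10 (19.9% over all). On Uextra 33.7% [32.0 to 35.4] of the specific summits of stages 12-13 and 4.17% [3.52 to 4.94] of those of stage 10 lay in gland IgG peaks. By overlap of 1 bp or more, the gland list touched 56.2% [48.9 to 63.4] of the peaks specific to stages 12-13 and 31.1% [19.5 to 45.7] of those specific to stage 10 on the Het scaffolds. On the arms the shares of specific summits were 8.20% [6.85 to 9.79] at stages 12-13 and 13.8% [8.67 to 21.2] at stage 10. For recurring arm summits they were 14.3% [9.11 to 21.7] and 12.8% [8.14 to 19.5]. At stage 10 recurring summits on the arms were thus no more often in gland IgG than specific ones. The 15 recurring arm loci in gland IgG met only 5 gland peaks, and 2 groups of neighbouring loci held 7 and 6 of the 15. The intervals for recurring arm summits treat these loci as independent, which they are not.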

How the data were processed

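The mapper was BWA and the assembly dm3 (Release 5), per the submitters' processing notes. Each library had its own peak calls, from MACS 2.0.10.20130419 for egg chambers (p-value limit 1e-03) and MACS 1.4.2 for the gland IgG (1e-05), per the file headers. In the deposited egg chamber lists each peak has the authors' fold enrichment (a ratio to input), its −log10 p-value and its summit pileup, a signal in tags. The gland list gives the authors' fold ratio.

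From these, overlaps were computed with pandas 2.3.3 and numpy 2.4.6 and checked on simulated peaks and against bedtools 2.31.1. Members and lists were chosen with earlier results of these data known. Named loci are the 10 recurring loci on arms, chromosome 4 or Het with the highest stages 12-13 pileup, the 5 highest folds in either list, the 5 widest on the arms, the 5 stage-specific arm peaks of highest fold per list, fixed amplicon and gene cluster windows (approximate, from general knowledge, rounded to 0.1 Mb) and the 10 windows of 100 kb richest in recurring loci. A pair of X loci tall at stage 10, the groups of loci within 5 kb and the pileup classes were chosen after seeing the data. So were the last part of Uextra and the removal of the X window. No locus was placed in a gene, because only a Release 6 gene table was at hand. Alternatives were other overlap rules, a p limit of 1e-05, pileup limits, equal numbers of peaks, subsets of the labelled lists and subsets of chromosomes. The gamma-H2Av lists were not used.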

Additional observations from a re-analysis of the deposited data

How the results depend on the processing

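Shares are given for stages 12-13 before stage 10 and, for the labelled lists, as SUUR and Cdc45 of stages 12-13, then SUUR and Cdc45 of stage 10; values that stayed inside their 95% interval are left out. The cause of these shifts was not tested beyond the construction of each alternative. With an overlap of 50% of the shorter peak, 27.5% and 35.1% of IgG peaks recurred, recurring loci held 15.4%, 6.96% and (Cdc45 of stage 10) 4.30% of the labelled lists, recurring peaks of stages 12-13 had medians of 100 bp and 10 tags, and 44.1% of loci overlapped gland IgG. With summits inside the other peak the shares were 28.3% and 36.0%, then 15.6%, 7.29% and (Cdc45 of stage 10) 4.50%, with a median width of 98 bp at stages 12-13. With gaps of up to 100 bp they were 37.4% and 48.5%, then 23.3%, 12.0%, 9.38% and 8.44%, with medians of 84 and 98 bp and of 8 and 11 tags, and 6.56% of recurring peaks of stages 12-13 on the arms. With IgG peaks at a p of 1e-05 they were 33.0% and 34.6%, then 14.2%, 6.76% and (Cdc45 of stage 10) 3.96%, with medians of 110.0 bp and 12 tags at stages 12-13 and 4.52% and 5.02% of recurring peaks on the arms. With equal numbers of IgG peaks they were 34.0% and 35.2%, then 16.1%, 7.84% and (Cdc45 of stage 10) 4.75%, with medians of 102 bp and 10 tags at stages 12-13. Without U and Uextra they were 10.3% and 51.1%, then 4.02%, 1.92%, 1.93% and 0.738%. On the major arms alone the medians of recurring peaks were 81 and 85 bp and 12 and 13 tags, and 13.0% of loci overlapped gland IgG. The upper 50% of the labelled lists by p gave 24.1%, 11.6%, 12.7% and 7.77%, and leaving labelled peaks under 5 tags out gave 34.9% for SUUR of stage 10. Leaving out IgG peaks under 10 tags, chosen after seeing the data, gave 41.4% and 22.9%, then 8.93%, 3.93%, 6.78% and 1.76%. No IgG peak had under 5 tags, so that limit left every value as it was. A further 66 values concerned stage-specific medians, X, and the shares of recurring peaks on chromosome 4, Het scaffolds and unplaced sequence. Of these, 59 stayed inside the interval and 7 moved. Those that moved include the shares on unplaced sequence at a p of 1e-05, from 91.9% and 91.8% to 93.0% and 92.9%. No paired analysis was possible because each stage had 1 IgG library.

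Depth limits the weak peaks: with 2592149 tags at stages 12-13 and 3891175 at stage 10, absence of a peak from a list does not show absence of signal there. With 1 library per stage, stage and library cannot be told apart, and the share of tags removed as duplicates, 61.0% at stages 12-13 and 43.3% at stage 10, moved with stage; its part in the results was not tested.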
